A study of Mus musculus with 3 samples.

Results

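The HSP70 and HSP90 chaperones were followed here in mouse pro-B cells with and without Pax5, through 10 genes listed by name: Hspa8, Hspa1a, Hspa1b, Hspa2, Hspa4, Hspa9, Hsp90aa1, Hsp90ab1, Hspd1 and Dnajb1. They are 10 of the 27179 genes counted. The list was drawn up with results of these same libraries known: it was chosen by the difference in Hspa8 counts between the genotypes, with relatives of Hspa8 set beside it. The members' differences between genotypes are therefore given as descriptions without p-values. RNA sequencing was done on 2 Pax5-/- samples and 1 wild-type sample, all pro-B cells grown from B220+ bone marrow cells (B220 is a B-lineage form of CD45) of C57BL/6 mice on OP9, a stromal feeder line. Both Pax5-/- samples were male and the wild type was female. For the Pax5-/- samples the labels state removal of IgM+ cells with magnetic beads at day 7, and for the wild type they state neither a day nor a depletion. Ages, the exons missing from the allele and the animals behind each sample are not given in the labels. Genotype, sex and depletion cannot be told apart in this design, and the spread between the Pax5-/- samples may be partly technical.

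HSP70 proteins bind exposed hydrophobic stretches of unfolded proteins and release them in a cycle driven by ATP. J-domain proteins such as Dnajb1 bring substrates and trigger ATP hydrolysis, and nucleotide exchange factors such as the HSP110 protein Hspa4 reset the cycle. HSP90 acts later, on kinases, steroid receptors and other nearly folded clients. In growing lymphoid cells the constitutive forms Hspa8 and Hsp90ab1 carry most of this work, whereas Hspa1a and Hspa1b are the classic heat-inducible HSP70 genes.

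The libraries held 6487846 and 6697879 counts in Pax5-/- samples 1 and 2 against 6530057 for wild type. The Pax5-/- libraries were not copies of each other, since their chi-square over tested genes was 16.5 per degree of freedom. Pax5 had 417 and 551 counts in Pax5-/- against 1601 for wild type. Its log2 fold change was -1.78 (SE 0.19), with an adjusted p = 0.0107 by edgeR's quasi-likelihood test. Markers of pro-B cells, 9 genes that include Cd79a, Vpreb1, Igll1, Rag1 and Ebf1, had at least 403 counts each in every library. The 12 markers of OP9 stroma summed to 66.8, 98.0 and 49.8 CPM (counts per 1000000 counts of tested genes, scaled by TMM) in Pax5-/- samples 1, 2 and then wild type. Thy1 had 362, 594 and 120 counts, and the other 11 markers summed to 11.0, 10.7 and 31.0 CPM, highest in the wild type. Among these Fn1 had 11, 26 and 76 counts and Col1a1 had 12, 6 and 23, while Pdgfrb went the other way with 15, 18 and 4. Of the 12 stromal markers 6 were tested, and Thy1 was the only marker called. The 10 myeloid markers summed to 27.5, 42.3 and 63.3 CPM in the same order, with members called in both directions. S100a9 had 0, 0 and 232 counts and S100a8 had 0, 0 and 30, while Lyz2 had 92, 128 and 28. The 7 erythroid markers summed to 1.54, 2.06 and 1.25 CPM in the same order, and among them Hba-a1, Hba-a2 and Hbb-bs had no counts in any library. The part of other cells in the differences below was not tested.

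Hspa8, the gene of the constitutive cytosolic HSP70 also called Hsc70, was far lower in the Pax5-/- libraries. It is Entrez gene 15481, at chromosome 9, 40801276 to 40805202 (mm10). It had 314 and 330 counts in Pax5-/- samples 1 and 2 against 8089 for wild type. After TMM scaling (the trimmed mean of M-values in edgeR) these were 48.5 and 48.5 CPM against 1262 CPM. Exact Poisson 95% intervals, which cover counting error only, ran from 43.3 to 54.1 and from 43.4 to 54.0 CPM in Pax5-/- and from 1234 to 1289 CPM in the wild type. The near equality of the Pax5-/- libraries is closer than these intervals, so it says little about the spread between samples. The log2 fold change was -4.70 (SE 0.11), or 26.0-fold higher in the wild type. Over all 11783 tested genes its rank from the lowest log2 fold change was 244. Of 285 tested genes with at least 500 CPM in the wild type, 9 had a lower log2 fold change than Hspa8. Hspa8 was chosen by this difference, and the 285 by a high wild-type level, so both ranks are descriptions. In bulk RNA, fewer cells that express a gene and less RNA per cell cannot be told apart.

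Hspa8 has many processed copies, intronless sequences made from its messenger RNA, and reads that match a copy can be split or lost in counting. The longest protein-coding Hspa8 transcript in GENCODE M21 (GRCm38, the assembly that mm10 names) has 2394 bases. Of its windows of 50 bases, 74.8% also occurred in a transcript of another annotated gene, on either strand. With windows of 36, 75 and 100 bases the shares were 78.3%, 68.6% and 63.4%. The length of the reads is not given in the sources used here. Within the coding sequence 90.7% of windows were shared, and of those that reach past its end 48.8%. No window that starts before the coding sequence was shared. The genes that shared them numbered 13, of which 12 are annotated as pseudogenes. Gm15459 (chromosome 5, 5781615 to 5783555, minus strand) was the closest, with 70.0% of Hspa8's windows, an exact shared run of 672 bases and 99.7% identity over 1938 coding bases. Gm26825, annotated as a noncoding RNA, covers the same place on the plus strand. Counts of these copies were not analysed here.

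Printed below are coding bases 31 to 120 of Hspa8, the matching stretch of its 3 closest HSP70 relatives among the members and that of the 4 pseudogenes that share most windows with it. They are shown because the pseudogenes are closer to Hspa8 over this stretch than the relatives are. Capitals mark bases that differ from Hspa8.
Hspa8: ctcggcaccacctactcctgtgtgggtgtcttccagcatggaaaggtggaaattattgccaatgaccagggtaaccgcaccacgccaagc
Gm15459: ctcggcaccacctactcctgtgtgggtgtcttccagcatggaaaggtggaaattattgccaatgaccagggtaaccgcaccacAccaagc
Gm8355: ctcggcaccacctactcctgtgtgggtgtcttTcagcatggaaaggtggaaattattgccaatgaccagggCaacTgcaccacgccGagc
Gm6210: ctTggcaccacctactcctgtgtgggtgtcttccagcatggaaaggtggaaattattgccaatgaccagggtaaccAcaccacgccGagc
Gm7232: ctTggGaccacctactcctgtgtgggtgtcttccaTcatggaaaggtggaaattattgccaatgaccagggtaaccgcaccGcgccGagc
Hspa1a: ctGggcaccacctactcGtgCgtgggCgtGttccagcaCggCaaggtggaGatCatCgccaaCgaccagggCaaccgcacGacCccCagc
Hspa1b: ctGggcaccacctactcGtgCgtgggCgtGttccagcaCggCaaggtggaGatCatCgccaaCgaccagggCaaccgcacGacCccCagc
Hspa2: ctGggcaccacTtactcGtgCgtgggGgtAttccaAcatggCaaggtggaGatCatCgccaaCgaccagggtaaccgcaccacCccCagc

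Over these 90 bases the pseudogenes differed from Hspa8 at 1 to 5 positions and the relatives at 14 or 15. Over the whole coding sequence Hspa1a, Hspa1b and Hspa2 were 74.5%, 74.6% and 75.4% identical to Hspa8, and the 4 pseudogenes 97.2% to 99.7%. No window of 36 bases of Hspa2 or Hspa4 occurred in another annotated gene.

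**Figure D1:**
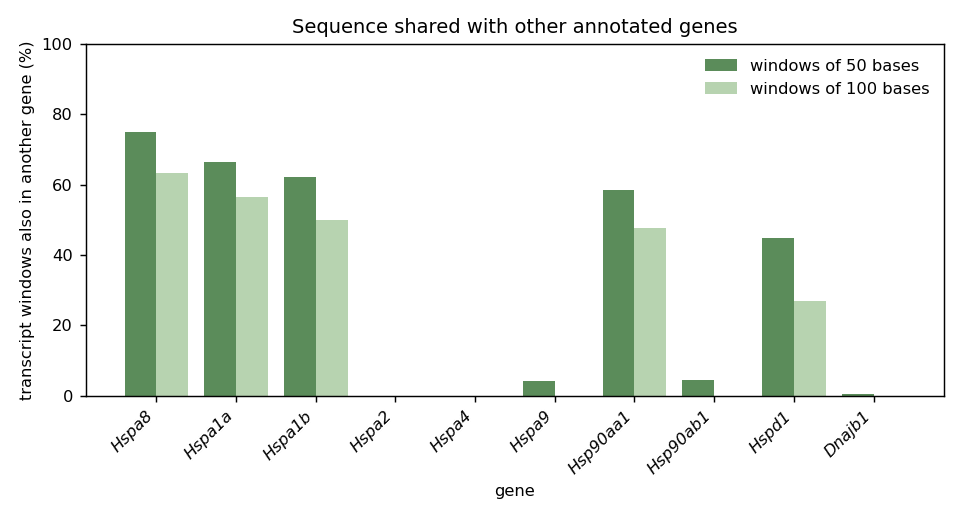
For each of the 10 chaperone genes, the bars give the percent of windows of 50 bases (dark) and 100 bases (light) in its longest protein-coding GENCODE M21 transcript that also occur in a transcript of another gene. Hspa8 has the highest share at both lengths, followed by Hspa1a, Hspa1b and Hsp90aa1, while Hspa2 and Hspa4 are at 0.

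Other members also shared windows, though none as many as Hspa8, at 74.8% of its 50-base windows. Hsp90aa1 shared 58.5% of its 50-base windows, mostly with the transcribed pseudogene Gm12346, and Hspd1 shared 44.8%. Both had similar counts in the 3 libraries, given below. Over the tested genes with a protein-coding transcript, 427 shared at least 50% of their windows, a split chosen after seeing the data. Of these, 50 (11.7%) were called different between the genotypes, against 18.7% of the 10269 genes that shared less. A fitted value at least 16-fold lower in Pax5-/- was found for 6 of the 427 (1.41%) and for 2.24% of the others. The groups were not matched for level or kind of gene, so nothing is read from these shares. Beside Hspa8, the 6 included the ribosomal protein gene Rps3a1, with 33, 37 and 769 counts (-4.50 on the log2 scale, SE 0.15). The others were Rtl8b, Mpzl2, Jmjd7 and Pla2g4b, all under 120 counts in the wild type and at most 2 in each Pax5-/- sample. These others passed the filter on low counts through the wild type alone, and Pla2g4b was not called. These genes were named after their values were seen. The part of shared reads in the Hspa8 difference was not tested.

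The heat-inducible pair Hspa1a and Hspa1b was low in all 3 libraries. Both lie in the class III region of the major histocompatibility complex, Hspa1a at chromosome 17, 34969359 to 34972156, and Hspa1b at 34956429 to 34959238. Hspa1a had 8 and 5 counts in Pax5-/- samples 1 and 2 against 14 for wild type, or 1.24, 0.73 and 2.18 CPM. It passed the filter on low counts through the wild type alone, and its log2 fold change was -1.14 (SE 0.64). Hspa1b had 33 counts in each Pax5-/- sample and 25 in the wild type, or 5.09, 4.85 and 3.90 CPM, with a log2 fold change of 0.35 (SE 0.37). The fitted values of the pair had opposite signs, and each was under 2 SE from 0. Their coding sequences were 99.6% identical, and 66.3% and 62.3% of their windows were shared, so counts may be split between them. With both counts added up before the fit, the log2 fold change was -0.03 (SE 0.33).

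Hspa2 (chromosome 12, 76403812 to 76406938), an HSP70 best known from male germ cells, had 254 and 382 counts in Pax5-/- against 218 for wild type. These were 39.2, 56.1 and 34.0 CPM, a log2 fold change of 0.49 (SE 0.27). Both Pax5-/- samples lay above the wild type, but they differed from each other by 0.51 on the log2 scale. With sample 1 alone the value was 0.21, and with sample 2 alone 0.72. Per length, Hspa2 was near Hspa8 in the Pax5-/- libraries, at 14.6 and 20.9 RPKM, which is CPM divided by the gene's length in kilobases, against 23.0 and 23.0 RPKM. Among the summed RPKM of Hspa8, Hspa1a, Hspa1b and Hspa2, Hspa8 made up 57.7% and 50.2% in Pax5-/- against 97.6% for wild type. The sum itself was 39.9 and 45.9 RPKM against 614.5 RPKM. Reads of Hspa8 that match its copies may be missing from these values, whereas Hspa2 shared no window with another annotated gene. The levels of the 2 genes are therefore not on equal terms.

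Hspa4 and Hspa9 differed little between the libraries. Hspa4 (chromosome 11, 53259814 to 53300479), the exchange factor, had 3555, 3830 and 3919 counts in Pax5-/- samples 1, 2 and then wild type, or 549, 563 and 611 CPM (log2 fold change -0.14, SE 0.10). Hspa9 (chromosome 18, 34937414 to 34954351), the HSP70 of mitochondria that pulls imported proteins through the inner membrane, had 4109, 4282 and 4078 counts, or 634, 629 and 636 CPM. Its log2 fold change was -0.01 (SE 0.10), the smallest in size among the 10 genes, and 0.03 with library size alone. No library stood apart for Hspa9.

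The HSP90 genes did not share the pattern of Hspa8. Hsp90ab1 (chromosome 17, 45567778 to 45573261), the constitutive cytosolic form, had 38934, 36628 and 32865 counts, or 6009, 5380 and 5126 CPM, and took 0.600%, 0.547% and 0.503% of all counts. Its log2 fold change was 0.15 (SE 0.11), with both Pax5-/- samples above the wild type. Hsp90aa1 (chromosome 12, 110691036 to 110696395), the inducible form, had 2337, 2009 and 2304 counts, or 361, 295 and 359 CPM (log2 fold change -0.13, SE 0.16). The wild type lay between the Pax5-/- samples for this gene, and its value was 0.01 without sample 2 and -0.28 without sample 1. Per length, Hsp90ab1 stood 18.9-fold and 20.7-fold above Hsp90aa1 in Pax5-/- and 16.2-fold above it in the wild type. Reads of Hsp90aa1 that match its pseudogenes may be missing from that ratio.

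Hspd1, the mitochondrial chaperonin Hsp60, and Dnajb1, the J-domain partner of cytosolic HSP70, were also close. Hspd1 (chromosome 1, 55077833 to 55088243) had 1927, 2022 and 2135 counts, or 297, 297 and 333 CPM (log2 fold change -0.16, SE 0.11). Dnajb1 (chromosome 8, 83608175 to 83612653) had 608, 688 and 663 counts, or 93.8, 101 and 103 CPM (log2 fold change -0.09, SE 0.15). For both genes the wild type was the highest library, by less than 2 SE.

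**Figure D2:**
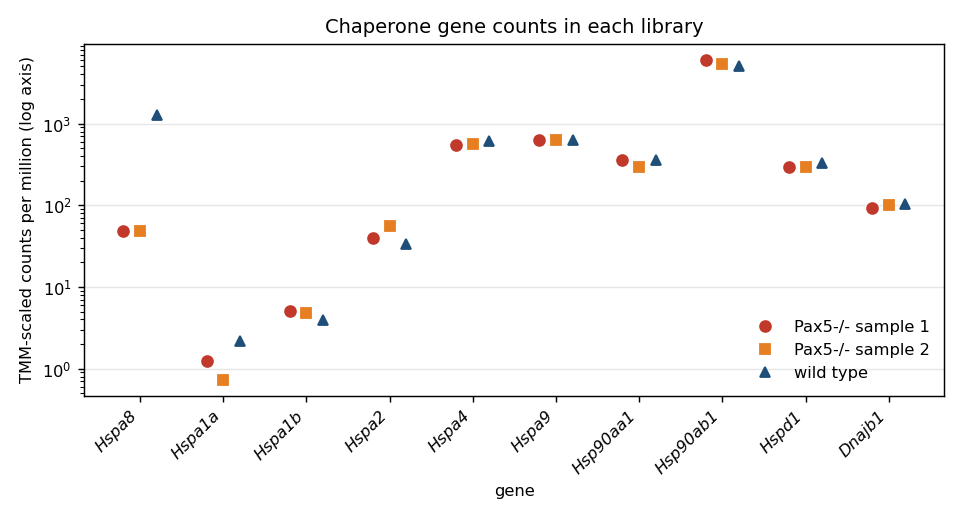
TMM-scaled CPM on a log axis for the 10 chaperone genes in Pax5-/- sample 1 (circles), Pax5-/- sample 2 (squares) and the wild type (triangles). Hspa8 is the gene whose Pax5-/- points (48.5 and 48.5) are far from the wild type (1262).

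Across the list, all 10 members passed the filter on low counts and 1, Hspa8, was called lower, none higher. Of the 11783 genes tested, 18.1% were called (9.53% higher and 8.55% lower, at an adjusted p under 0.05 by Benjamini and Hochberg's method in edgeR). Because the members were chosen with this contrast known, nothing is read from that count. The median log2 fold change was -0.11 over the members and 0.01 over all tested genes. It was -0.09 over the 9 members other than Hspa8. The log2 fold change of 6 members was under 0.25 in size. The wild type lay above both Pax5-/- samples for 6 members, below both for 3 and between them for Hsp90aa1. The 6 include Hspa9, at 634, 629 and 636 CPM. This order was not counted over all tested genes, so nothing is read from these counts. The Pax5-/- samples differed from each other by a median of 0.09 on the log2 scale over the members and 0.18 over all tested genes.

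**Figure D3:**
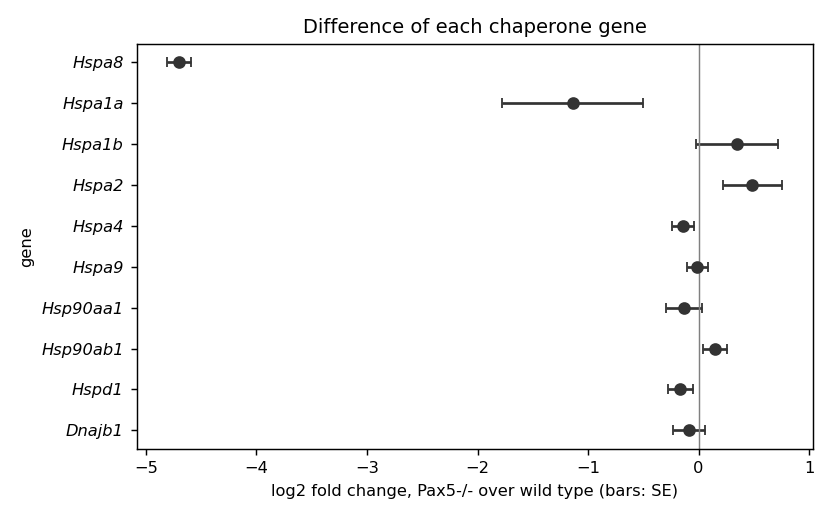
Log2 fold change of Pax5-/- (n = 2) over wild type (n = 1) for the 10 chaperone genes, with SE from edgeR's quasi-likelihood fit as bars; the vertical line marks 0. Hspa8 is at -4.70, and the other 9 genes lie between -1.14 and 0.49.

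Ordered by level per length, Hsp90ab1 came first in every library, at 2397 and 2146 RPKM in Pax5-/- against 2045 RPKM for wild type. These were ranks 15, 19 and 21 among all genes. In the wild type Hspa8 was next, at 599.7 RPKM and rank 85. There followed Hspa9 (209 RPKM), Hspd1 (143), Hspa4 (132), Hsp90aa1 (126), Dnajb1 (45.7), Hspa2 (12.7), Hspa1b (1.39) and Hspa1a (0.78). In Pax5-/- sample 2 the order of these genes was the same with Hspa8 moved below Dnajb1, to rank 3857. Sample 1 had Hspa8 below Dnajb1 too, at rank 3874, and Hsp90aa1 above Hspa4. Dnajb1 was at 41.4 and 44.6 RPKM in Pax5-/- samples 1 and 2. Hspa4, at 118 and 121 RPKM, lay inside the range of Hsp90aa1, at 127 and 104 RPKM, so these 2 neighbours were not separated. With 1 wild-type library no spread can be set beside its order.

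Promoter windows, 250 bases before to 50 after each RefSeq start (GRCm38.p6), were searched for the heat shock element, the site of the factor Hsf1. Its 8-base forms GAANNTTC and TTCNNGAA each read the same on both strands, and 15.1% of 32851 windows held at least 1. A longer form, GAANNTTC followed by NNGAA, overlaps both and was in 0.603% of windows on either strand. Of the 6 members with a window, Hspa1a, Hspa1b and Hspd1 held an 8-base form, and Hspd1 also the longer one. The others were Hspa2, Hspa4 and Dnajb1. Windows of Hspa8, Hspa9, Hsp90aa1 and Hsp90ab1 were not analysed here. The elements are shown because Hspd1 and its partner Hspe1 share a cluster of 3 overlapping elements, which lies between the Hspe1 start and 1 of 2 Hspd1 starts on the opposite strand. Capitals mark the 8-base forms and their overlaps, and each line gives 30 bases.
Hspa1a, chr17:34972242-34972271, minus strand, and Hspa1b, chr17:34959324-34959353, minus strand: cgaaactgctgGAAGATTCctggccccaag
Hspd1, chr1:55088053-55088082, minus strand: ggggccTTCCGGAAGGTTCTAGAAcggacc
Hspe1, chr1:55088053-55088082, plus strand: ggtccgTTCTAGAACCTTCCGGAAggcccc

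The element nearest the start was 97 bases upstream in Hspa1a and Hspa1b, 127 bases upstream of the Hspd1 start at 55087932 and 72 bases upstream of the Hspe1 start at 55088148. The window of the other Hspd1 start, at 55088243, held none. Hspe1 encodes Hsp10, the lid of the Hspd1 chaperonin. It had 512, 481 and 799 counts, or 79.0, 70.7 and 125 CPM, and fell by 0.74 in log2 units (SE 0.15, adjusted p = 0.0467 by edgeR). The ratio of Hspd1 to Hspe1 CPM was 3.76 and 4.20 in Pax5-/- against 2.67 for wild type. The call of Hspe1 was lost with library size alone and with an assumed biological coefficient of variation of 0.4. A match to these letters is a description, not evidence of binding.

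In the wider chaperone network the lowest log2 fold change was -1.76, that of Dnajc21. Of 139 genes on 10 lists, members left out, 116 were tested, 6 were called higher and 7 lower (11.2%, against 18.1% of all tested genes). Their median log2 fold change was -0.11. Among the other HSP70 and HSP110 genes, 8 of 9 were tested and none was called. Hspa5, the HSP70 of the endoplasmic reticulum also called BiP, had 4859, 5188 and 5231 counts (log2 fold change -0.11, SE 0.10). Hsph1, a heat-inducible HSP110, had 1474, 1291 and 1772 counts (-0.41, SE 0.16). Neither of the other HSP90 genes was called. Hsp90b1, the HSP90 of the endoplasmic reticulum, was at -0.33 (SE 0.09) and Trap1, that of mitochondria, at 0.29 (SE 0.21). The Trap1 value was 0.07 without Pax5-/- sample 1 and 0.48 without sample 2.

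J-domain proteins were the longest list. Of 48, 41 were tested, 3 rose and 5 fell (19.5%, near the 18.1% of all tested genes), and the median log2 fold change was -0.05. Dnajc6, which encodes auxilin, the partner of Hsc70 in stripping clathrin from vesicles, had 280 and 376 counts in Pax5-/- against 10 for wild type. It rose by 4.96 in log2 units (SE 0.32, adjusted p = 0.00468, edgeR quasi-likelihood test). Dnajb14, a J protein of the endoplasmic reticulum membrane, had 26, 33 and 3 counts, a ratio of 9.49 (95% counting interval 3.09 to 47.3). Its adjusted p was 0.0395 by edgeR and 0.085 with DESeq2, and it passed the filter on low counts through the Pax5-/- samples alone. Dnajc21, a cytosolic J protein of ribosome assembly, had 195, 238 and 709 counts and fell by 1.76 in log2 units (SE 0.16, adjusted p = 0.00847 by edgeR). Dnajb5 had 26, 27 and 69 counts and fell by 1.43 (SE 0.30, adjusted p = 0.0476 by edgeR), a call that DESeq2, scaling by library size alone and an assumed biological coefficient of variation of 0.4 each lost. The Pax5-/- samples stood together, apart from the wild type, for each of these 4 genes. They were named because they were called, and the spread in the fit came from the Pax5-/- samples. That order therefore adds no support.

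Partners that set the HSP70 and HSP90 cycles were mostly not called, as were most tested genes, of which 18.1% were called. None of 9 tested nucleotide exchange factors (of 10) passed. Bag6 was at 0.07 (SE 0.11) and Bag1 at 0.45 (SE 0.17). Of 26 other cochaperones, all tested, 2 rose (7.69%). Fnip2, a folliculin partner that slows the HSP90 ATPase, had 124, 185 and 4 counts (log2 fold change 5.17, SE 0.50, adjusted p = 0.00906, edgeR quasi-likelihood test). It passed the filter on low counts through the Pax5-/- samples alone. Ahsa2, a relative of the HSP90 activator Aha1, had 201, 245 and 91 counts (1.24, SE 0.20, adjusted p = 0.0274 by edgeR). The call of Ahsa2, and that of Dnajc21, was lost with an assumed biological coefficient of variation of 0.4.

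Other folding machines gave single calls. Of 14 genes of mitochondrial folding, all tested, Hspe1 was the 1 called (7.14%, against 18.1% of all tested genes). Of 15 genes of the cytosolic chaperonin CCT and of prefoldin, 14 were tested and 1 fell (7.14%). This was Vbp1, a prefoldin subunit, with 464, 443 and 823 counts (log2 fold change -0.91, SE 0.15, adjusted p = 0.0280 by edgeR). The list's median was -0.19. Of 10 small heat shock genes, 2 were tested and 5 had no counts in any library, Hspb1 among them. A count of 0 allows up to 0.463, 0.441 and 0.468 CPM in the 3 libraries. Hspb11, a small heat shock relative that is a part of ciliary transport, had 184, 162 and 66 counts and rose by 1.34 (SE 0.23, adjusted p = 0.0313 by edgeR). The calls of Vbp1 and Hspb11 were lost with an assumed biological coefficient of variation of 0.4.

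**Figure D4:**
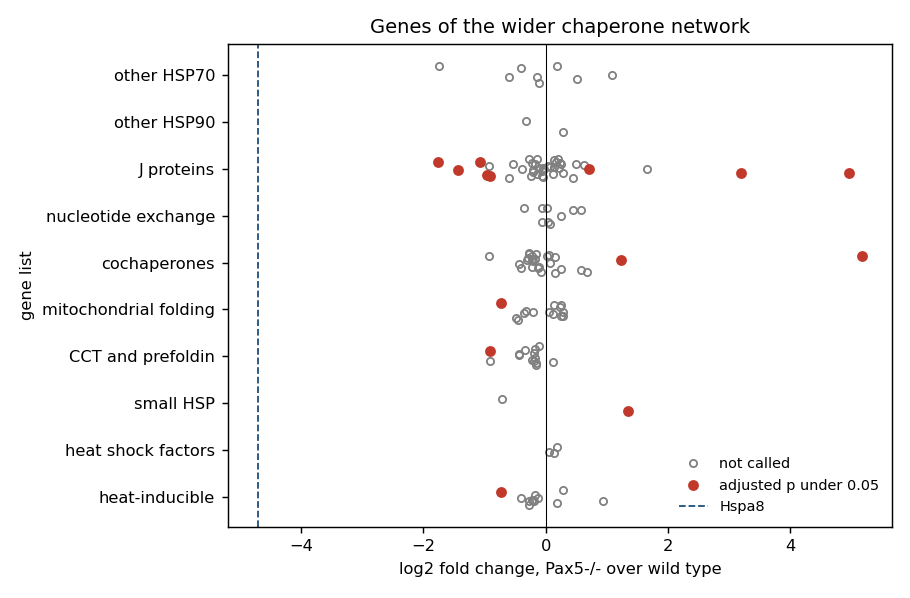
Log2 fold change of Pax5-/- over wild type for the tested genes of 10 chaperone lists, members left out, with 1 point a gene (filled where edgeR's adjusted p is under 0.05; vertical jitter has no meaning and genes on 2 lists appear in both). The dashed line marks Hspa8 at -4.70, and no gene on these lists lies as low.

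Few heat shock factors and heat-inducible genes were called. Of 6 genes of the factors and their binding protein, 3 were tested and none called. Hsf1, the main factor of the heat response, had 363, 383 and 329 counts (log2 fold change 0.13, SE 0.14), and Hsbp1, which binds it, was at 0.19 (SE 0.15). Of 18 heat-inducible genes, 12 were tested, Hspe1 fell and none rose (8.33% called, against 18.1% of all tested genes). The log2 fold change was negative for 9 of the 12, with a median of -0.20. Bag3, among the most heat-inducible of them, had 1, 2 and 2 counts. Immediate early genes, which handling of cells can raise, were also counted. Of 16, 13 were tested, Egr1, Btg2 and Zfp36 fell and none rose (23.1% called, against 18.1%), with a median of -0.77. Members not called lay on both sides of 0, among them Junb at -0.77 (SE 0.19) and Nr4a1 at 0.65 (SE 0.19). The list summed to 467 and 518 CPM in Pax5-/- against 987 CPM for wild type, the sample without a stated depletion. The part of handling in the difference of Hspa8 was not tested.

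The genes of these lists whose pattern over the 3 samples was nearest to Hspa8 were still far from it. By Euclidean distance of log2 CPM centred on each gene, the closest of 125 genes were Dnajc21 at 2.40, Hspa12b at 2.64 and Dnajb5 at 2.72. Hspa12b, a distant HSP70 relative, had 4, 7 and 18 counts (log2 fold change -1.74, SE 0.61). It passed the filter on low counts through the wild type alone and was not called. All 3 were higher in the wild type than in both Pax5-/- samples, by less than Hspa8. That direction follows from picking them by likeness to Hspa8, so nothing is read from it.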

How the data were processed

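RNA of 2 Pax5-/- samples and 1 wild-type sample was analysed from counts per gene that the authors deposited, whole numbers made with featureCounts on mm10, per the submitters' processing notes. The aligner and annotation, like the version and use of strand, were not given in the sources used here, so overlapping and antisense reads cannot be separated. Deposited gene lengths gave RPKM. Symbols came from RefSeq (GRCm38.p6), matching 25275 of 27179 Entrez numbers. The test was edgeR 4.0.16 (R 4.3.3): filterByExpr (minimum count 10), TMM, glmQLFit and glmQLFTest on 11783 genes, with p-values adjusted by Benjamini-Hochberg and called under 0.05. With 1 residual degree of freedom, the wild type was assumed to vary like the Pax5-/- samples. The SE is the coefficient over the square root of F. The fit was also run on simulated data, with the outcome not reported here. DESeq2 1.42.0 was an alternative. Shared windows were exact matches among GENCODE M21 transcripts, not the genome, and sequences were aligned with Biopython 1.88.

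Members and gene lists were chosen with earlier results of these data known. The genes named were the 10 members, Pax5, up to 4 called genes of each chaperone list (mean CPM 1 or more, by size of change, or the 2 most abundant where none was called) and the 3 closest to Hspa8. Copies of Hspa8 were named from the annotation. The split of genes by shared windows was chosen after seeing the data. No molecular identifiers are described, so reads may repeat a molecule, and the intervals and floors reflect counting error alone. Some marker genes on the lists are not reported here.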

Additional observations from a re-analysis of the deposited data

How the results depend on the processing

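The log2 fold change of Hspa8 was -4.71 with RLE scaling and -4.66 with library size alone, and it ranged from -4.702 to -4.701 when either Pax5-/- sample was left out. The median over the 10 members was -0.112 with RLE scaling and -0.072 with library size alone, and -0.077 to -0.072 with either sample left out. An assumed biological coefficient of variation of 0.4 gave 1206 called genes in all, against 2130, and 3 in the chaperone lists, against 13. Of the 9 list genes named as called, it lost 6, DESeq2 and library size alone lost 2 each, and RLE scaling and no filter on low counts lost 0. Leaving out a sample leaves no residual degrees of freedom, so those values have no test. Adding the counts of Hspa8 and its copies was not run, since the copies were not analysed here. No paired analysis was possible, because there was 1 wild-type library and no label links it to a Pax5-/- sample. At this depth Hspa1a, with 5 to 14 counts, cannot show a small difference.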

Other observations

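Further J-domain genes were called and fall outside the rule for named genes, so they were named after their values were seen. Dnajc7, a cochaperone that binds both HSP70 and HSP90, had 1135 and 1126 counts in Pax5-/- against 2053 for wild type, a log2 difference of -0.91 (SE 0.12, adjusted p = 0.0177, edgeR quasi-likelihood test). Dnajb11, a J protein of the endoplasmic reticulum lumen that works with Hspa5, had 530, 624 and 1077 counts (-0.95, SE 0.15, adjusted p = 0.0256 by edgeR). Dnajc27 had 80, 82 and 164 counts (-1.07, SE 0.20, adjusted p = 0.0353 by edgeR). Dnajc1 had 385, 385 and 227 counts (0.71, SE 0.15, adjusted p = 0.0469 by edgeR). All 4 calls were lost with an assumed biological coefficient of variation of 0.4, and those of Dnajc27 and Dnajc1 also with DESeq2.

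The tested genes nearest to Hspa8 on chromosome 9 differed in sign. Gramd1b, before it, had 76, 69 and 16 counts (log2 fold change 2.12, SE 0.35), and Ubash3b, after it, had 14, 7 and 25 counts (-1.29, SE 0.60).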
